A study of Homo sapiens with 30 samples.

Results

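Ramos cells treated with 2.5 μM Omomyc for 24 h were compared with untreated Ramos cells by RNA-Seq of 3 libraries in each group, which are 6 of the 30 libraries of the series. The genes described are the 13607 of 57992 in the table whose mean over these 6 libraries was at least 0.5 RPKM, a read count adjusted for gene length and sequencing depth. Ramos is a Burkitt lymphoma line with a translocated MYC gene, and the cells of both groups carry that translocation. The remaining Ramos libraries come from cells given 0.5 μM Omomyc for 6 or 24 h, or 2.5 μM for 6 h, with 3 libraries each. A tag of the libraries titled 24 h reads 4 h, and the titles were followed. The untreated libraries have no time point and serve every dose and time, and no carrier or mock treatment is given for Ramos cells. Nothing states whether replicates were separate cultures, so that p-values measure only the spread between these libraries.

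MYC and its partner MAX form a dimer that binds the E box, a short DNA element in the promoters of growth genes. Omomyc is a miniprotein made from the dimerization and DNA-binding part of MYC with altered dimerization residues, and it can pair with MYC, with MAX and with itself. Burkitt lymphoma cells resemble germinal center B cells, in which signals from the B cell receptor act through the ERK and NF-κB pathways on chemokine, activation and survival genes.

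The labelled cell type was checked against its markers. All 7 B cell markers and all 5 germinal center B cell markers passed the mean of 0.5 RPKM, with IGHM, MS4A1, CD79A and PAX5 among them. None of the 6 myeloid, 7 epithelial, 4 erythroid or 5 fibroblast markers passed it. Of 6 T cell markers 1 passed, TRAC at a mean of 59.6 RPKM, whereas CD2 and CD8A were listed at 0 in all 6 libraries. Summed over genes, untreated libraries held 879661 to 973736 RPKM and treated libraries 783788 to 828045 RPKM. Genes for small noncoding RNAs took 43.2 to 49.0% of the sum in untreated and 34.3 to 38.2% in treated cells, without overlap. The number of reads is not given, so the depth behind each value is unknown.

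Chemokine genes led the falls among protein-coding genes in treated cells. CCL1, CCL3 and CCL4 fell by the most among protein-coding genes with a mean of at least 2 RPKM, with 6.26-fold, 4.41-fold and 4.69-fold lower mean RPKM. EGR2, CD83, EBI3, TNFAIP3 and CD274 fell too, and the rises among such genes were smaller, with TUBB3 at 1.87-fold among the largest. In all, 627 genes (4.61% of those tested) differed at an adjusted p under 0.05, with 449 higher (3.3%) and 178 lower (1.31%) in treated cells. Of these, 6 rose and 15 fell by at least 1 on the log2 scale. The median log2 fold change was 0.31 for the higher genes, -0.51 for the lower genes and 0.05 for all tested genes. The groups did not overlap for 3729 genes (27.4%), with treated cells higher for 2800 (20.6%) and lower for 929 (6.83%).

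The test was limma's moderated linear model on log2(RPKM + 0.5) with Benjamini-Hochberg adjustment, and fold changes on that scale understate the change of low genes. The direction of the small changes moved with the scaling. Higher genes were 71.6% of the calls on the deposited values, 43.4% of 346 calls after median-ratio scaling, 44.3% of 323 after quantile normalization and 97.4% of 5362 after rescaling to an equal sum, which moved the median of all genes to 0.24. Of the 449 higher genes 150 were still called after median-ratio scaling, against 169 of the 178 lower genes. The count also rested on single libraries. Without treated replicate 1, 2 or 3 it was 91, 60 and 67, and 400, 268 and 929 without untreated replicate 1, 2 or 3. It fell to 24, with 6 higher, without the trend in eBayes, limma's moderation step. Of the lists described below, that fit called 4 NF-κB, 2 immediate early and 2 chemokine list genes and 1 gene tested by RT-PCR, all lower. The other lists gave no call in it. The small RNA share differed between the treated and untreated libraries, as given above. The called genes differed in GC content, with a median transcript GC of 57.0% in higher genes, 49.6% in lower genes and 47.8% in all genes. After removal of a trend on GC content, chosen after seeing the data, 343 genes were called, 39.1% of them higher. The part of the small RNA share in the result was not tested.

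**Figure D1:**
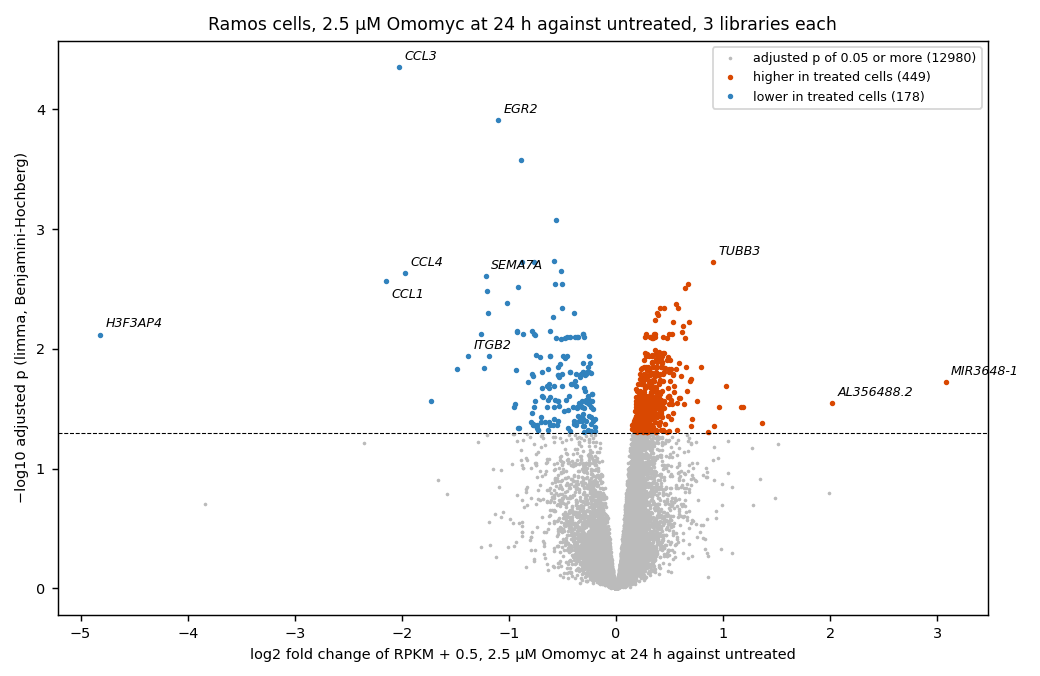
Log2 fold change (x axis, 2.5 μM Omomyc at 24 h against untreated) and −log10 adjusted p from limma (y axis) of 13607 genes in Ramos cells. Colored points are the 449 genes higher and 178 genes lower in treated cells, the dashed line is the adjusted p of 0.05, and the farthest points on the side of the falls among labelled protein-coding genes are CCL1, CCL3 and CCL4.

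The chemokine genes CCL1, CCL3 and CCL4 encode secreted ligands that attract T cells, monocytes and other leukocytes, and B cells make CCL3 and CCL4 after receptor stimulation. They lie on chromosome 17 of GRCh38, CCL1 at chr17:34360328-34363231 and CCL3 and CCL4 close together at chr17:36088256-36090169 and chr17:36103590-36105621. To show the DNA in front of the genes that fell, the 250 bases before the RefSeq start are printed for 2 chemokine genes and 2 genes of the NF-κB list that hold a 10-base NF-κB consensus match on either strand, with all matches in capitals. They were chosen, after their values were seen, among 19 genes that fell and hold a match, of 120 that fell and had an entry. The build is GRCh38.p14. The windows are chr17:34363234-34363483, minus strand, for CCL1, chr16:57358533-57358782, plus strand, for CCL22, chr19:4229273-4229522, plus strand, for EBI3, and chr6:137867009-137867258, plus strand, for TNFAIP3.
CCL1: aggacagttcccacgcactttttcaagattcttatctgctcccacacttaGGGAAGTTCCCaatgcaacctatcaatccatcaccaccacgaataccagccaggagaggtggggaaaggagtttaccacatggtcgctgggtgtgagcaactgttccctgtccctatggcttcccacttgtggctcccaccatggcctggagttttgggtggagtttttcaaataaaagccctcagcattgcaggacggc
CCL22: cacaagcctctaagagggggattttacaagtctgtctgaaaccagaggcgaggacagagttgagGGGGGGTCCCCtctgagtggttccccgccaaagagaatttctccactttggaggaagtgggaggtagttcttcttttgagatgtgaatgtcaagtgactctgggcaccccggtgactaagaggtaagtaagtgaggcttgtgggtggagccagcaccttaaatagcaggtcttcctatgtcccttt
EBI3: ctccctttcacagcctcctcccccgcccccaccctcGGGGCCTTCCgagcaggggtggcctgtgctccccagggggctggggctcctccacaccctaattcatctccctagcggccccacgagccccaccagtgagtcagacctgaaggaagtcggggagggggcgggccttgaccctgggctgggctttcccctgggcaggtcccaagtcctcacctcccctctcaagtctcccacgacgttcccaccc
TNFAIP3: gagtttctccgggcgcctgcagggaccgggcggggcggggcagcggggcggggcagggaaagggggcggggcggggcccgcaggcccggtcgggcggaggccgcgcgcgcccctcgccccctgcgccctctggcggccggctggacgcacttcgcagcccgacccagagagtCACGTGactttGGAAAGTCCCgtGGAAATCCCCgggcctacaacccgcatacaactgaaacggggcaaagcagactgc
CCL1 and CCL22 each held 2 matches that overlap by all but 1 base, beginning 200 and 199 bases before the start in CCL1 and 186 and 185 in CCL22. EBI3 held 1 match, at 214 bases. TNFAIP3 held 2 NF-κB matches at 67 and 55 bases and an E box (CACGTG) at 78 bases. A match describes the letters only. The NF-κB consensus was in 9.57% and the E box in 6.49% of the 27305 RefSeq promoters, in the same window. Among tested genes with an entry the shares were 11.6% and 9.32%. The NF-κB consensus was in 15.8% of the genes that fell and in 14% of those that rose. The windows of CCL3, EGR2, CD83 and BCL2A1 held neither. Only 8816 of the 13607 tested genes had an entry, so these shares leave out the other tested genes.

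CCL3 had 20.9, 19.95 and 18.1 RPKM in untreated cells and 4.91, 4.34 and 4.12 RPKM in treated cells. All treated libraries were below all untreated libraries, and the gene fell by 2.02 ± 0.09 (SE) on the log2 scale (limma, adjusted p = 4.43e-05). CCL3 overlaps AC243829.4 on the other strand, and whether reads were counted by strand is not stated. CCL4 had 11.2, 11.4 and 7.08 RPKM without Omomyc and 2.25, 2.28 and 1.79 RPKM with it, a log2 fold change of -1.97 (limma, adjusted p = 0.00233). CCL1 went from 8.53, 4.48 and 6.92 RPKM to 1.11, 0.993 and 1.08 RPKM, a log2 fold change of -2.15 (limma, adjusted p = 0.00273). The untreated libraries were the more scattered for CCL1 and CCL4, and no group overlapped. CCL4L2, a near-identical copy of CCL4, also fell (8.11 to 3.30 RPKM in the mean, limma adjusted p = 0.00499), but reads of such copies, like those of CCL3 and its copies, may be split between genes. A two-sided exact permutation test on RPKM gave 0.1 for every gene without overlap, which is the lowest p available with 3 libraries in each group.

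In the list of 26 chemokine and migration receptor genes, 16 passed the mean of 0.5 RPKM, 5 fell and 2 rose, where 1.31% of all tested genes fell and 3.3% rose, with a median of -0.06 beside 0.05 for all genes (0.11 beside 0.24 after rescaling to an equal sum). CCL22, a ligand of CCR4, fell by 0.96 and CD69, which holds lymphocytes in tissue by binding S1PR1, fell by 0.62 (limma, adjusted p = 0.0306 and 0.0432). CCR10, a receptor of plasma cell homing, and S1PR4 rose by 0.57 and 0.53, but the list gave 0 rises without treated replicate 1, 2 or 3 or untreated replicate 2, 1 without untreated replicate 1, and 0 after removal of a trend on GC content or transcript length, chosen after seeing the data. The germinal center receptors CXCR4 and CXCR5 did not pass the test, with log2 fold changes of 0.07 and -0.24. The list's fallers numbered 3 without treated replicate 1, 2 or 3 or untreated replicate 1, and 4 without untreated replicate 2 or 3. CCL1 and the adhesion genes ITGB2 and SEMA7A stand outside the list. ITGB2, the β chain of leukocyte integrins, had 6.37, 4.01 and 3.59 RPKM in untreated cells and 1.54, 1.56 and 1.21 RPKM in treated cells (log2 fold change -1.38, limma adjusted p = 0.0114). It overlaps the antisense gene ITGB2-AS1, and whether reads were counted by strand is not stated. Its call was lost without treated replicate 1, 2 or 3, with log2 fold changes of -1.53 to -1.15 over the fits that left out 1 library. SEMA7A, a membrane-anchored semaphorin, fell from a mean of 10.3 RPKM to one of 4.10 RPKM, without overlap.

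**Figure D2:**
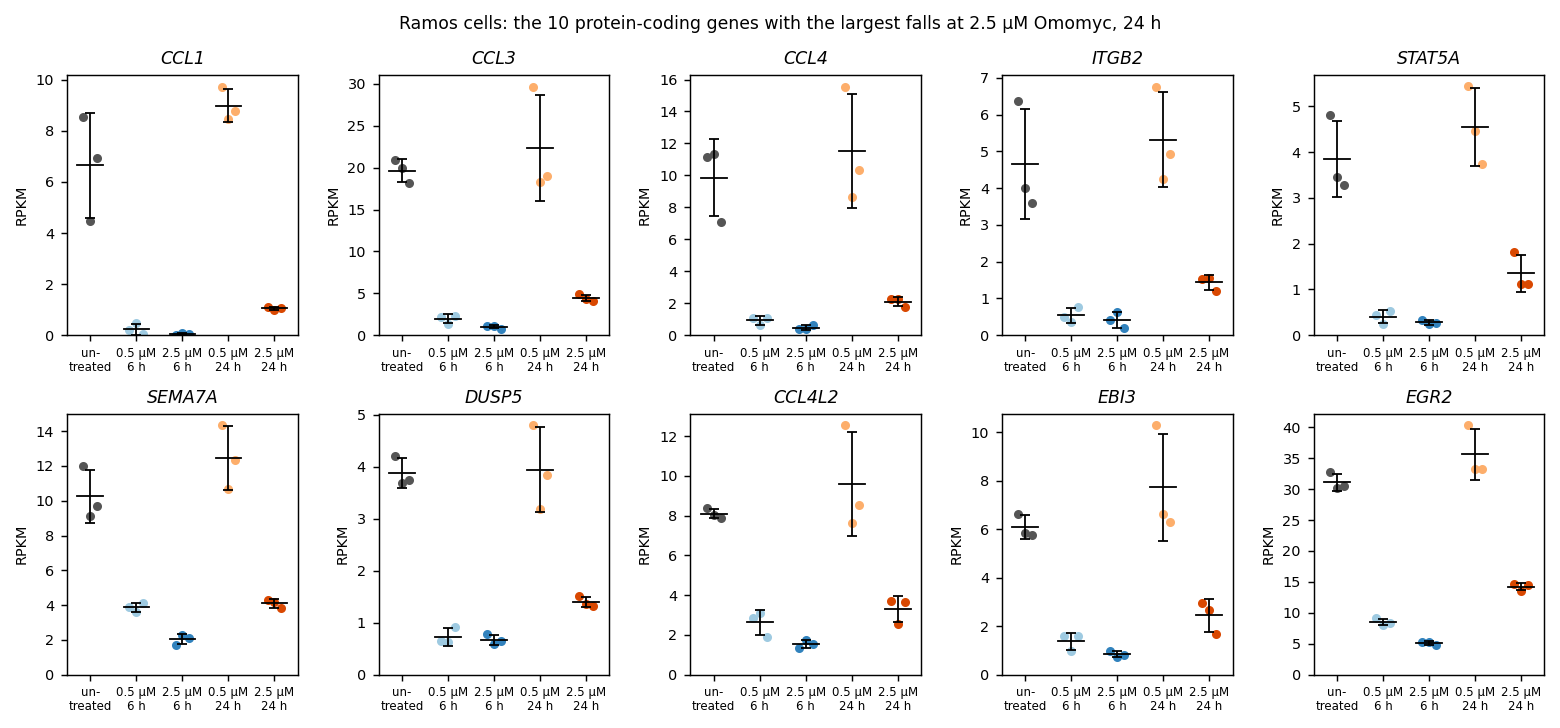
RPKM (y axis, linear from 0) of the 10 protein-coding genes with the largest falls in each of the 15 Ramos libraries, by group (x axis). Points are libraries, and the black line and bars are the mean and SD of 3. In each panel the libraries at 2.5 μM and 24 h lie below the untreated ones, CCL3 at 4.12 to 4.91 against 18.1 to 20.9 RPKM.

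The same 10 genes were lower still at 6 h. CCL3 averaged 1.01 RPKM with 2.5 μM at 6 h and 4.46 RPKM at 24 h, beside 19.7 RPKM in untreated cells. The 24-h level was above the 6-h level by 1.72 on the log2 scale when these groups were compared directly (limma, adjusted p = 6.96e-05). EGR2 averaged 5.11 RPKM at 6 h and 14.2 RPKM at 24 h, a direct difference of 1.39 (limma, adjusted p = 1.11e-05), and CCL1 0.0487 and 1.06 RPKM. At 24 h the lower dose gave 22.4 RPKM for CCL3, 35.6 RPKM for EGR2 and 8.99 RPKM for CCL1, and each was lower at 2.5 μM in the direct test between the doses (log2 differences of -2.17, -1.29 and -2.60, limma adjusted p = 0.000484, 0.000246 and 9.52e-06). These comparisons share the 3 libraries of 2.5 μM at 24 h with the one against untreated cells. Over all genes, 3125 of 13564 (23%) differed between 24 h and 6 h at 2.5 μM, with 12.7% higher and 10.4% lower at 24 h. Between the doses at 24 h 579 of 13629 (4.25%) differed, with 2.39% higher and 1.86% lower at 2.5 μM. FCRL5, an Fc receptor-like protein of B cells, had the largest rise from 6 h to 24 h by the naming rule, from 0.699 to 6.82 RPKM, and was still below its 14.4 RPKM in untreated cells (log2 fold change -1.02, limma adjusted p = 0.00411).

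Genes of the NF-κB pathway fell as a group by count. Of 30 listed regulators and targets 29 passed the mean of 0.5 RPKM, 12 fell and none rose, where 1.31% of all tested genes fell. The median was -0.17, and the members ranged from -2.02 (CCL3) to 0.28. CCL3 and CCL4 are among the 12 and are counted in the chemokine list as well, so the lists are not separate counts. CD83, a surface marker of activated B cells, had 127, 117 and 112 RPKM in untreated and 64.7, 65.2 and 61.1 RPKM in treated cells, a log2 fold change of -0.89 ± 0.05 (SE; limma, adjusted p = 0.000264). TNFAIP3, which encodes the ubiquitin-editing inhibitor A20, had 7.34, 7.04 and 6.18 RPKM against 3.77, 3.92 and 3.72 RPKM (-0.77, limma adjusted p = 0.00747). BCL2A1, an antiapoptotic BCL2 relative, had 52.7, 42.4 and 41.3 RPKM against 29.1, 25.4 and 25.2 RPKM (-0.76, limma adjusted p = 0.00761). None of these 3 genes overlapped between the groups.

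EBI3, a cytokine subunit, fell by 1.19, and the cytokines TNF and LTA fell by 0.52 and 0.54. Smaller falls were seen for the signaling genes TRAF1 (-0.48) and BIRC3 (-0.29) and for the NF-κB subunits REL (-0.38) and NFKB1 (-0.26). The subunits RELA (0.01), RELB (0.18) and NFKB2 (-0.25) and the inhibitor NFKBIA (0.13) did not pass the test. The number of fallers was 9, 6 and 7 without treated replicate 1, 2 or 3 and 10, 10 and 14 without untreated replicate 1, 2 or 3, and it was 13 with 0 higher after median-ratio scaling. Rescaling to an equal sum turned the list's median to 0.03, below the 0.24 of all genes on that scale, with 9 members lower and 6 higher.

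Immediate early and ERK response genes, which follow receptor signaling within minutes to hours, were represented by 26 of 38 listed genes. Of these 9 fell and 1 rose, where 1.31% of all tested genes fell and 3.3% rose, with a median of -0.23. EGR2, a zinc finger transcription factor induced by antigen receptor signaling, had 32.7, 30.1 and 30.5 RPKM in untreated cells and 14.7, 13.6 and 14.4 RPKM in treated cells. It fell by 1.10 ± 0.06 (SE) with no overlap (limma, adjusted p = 0.000124). DUSP5 and DUSP2, phosphatases that inactivate MAP kinases, fell by 1.21 and 0.57. The nuclear receptors NR4A3 and NR4A1 fell by 0.79 and 0.62, and PHLDA1, ZFP36L1, CD69 and BTG2 also fell. CD69 is counted in the chemokine list as well. FOS (-0.31), EGR1 (-0.29) and JUN (-0.01) did not pass the test, and MYC was the member that rose. Without treated replicate 1, 2 or 3 the fallers numbered 6, 6 and 4, and without untreated replicate 1, 2 or 3 they numbered 7, 7 and 9.

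The study also tested 5 genes by RT-PCR, in HCT116 colon carcinoma cells given 10 μM Omomyc with a protein transfection reagent. It reported each of them as significantly lower there by 24 h. In these Ramos libraries 3 of the 5 fell, 1 rose and 1 did not pass the test, where 1.31% of all tested genes fell and 3.3% rose. CD274, which encodes the immune checkpoint ligand PD-L1, had 10.1, 8.39 and 8.94 RPKM in untreated cells and 5.07, 4.78 and 5.43 RPKM in treated cells. The groups did not overlap (-0.79, limma adjusted p = 0.00707), and its mean was 2.15 RPKM with 2.5 μM at 6 h and 10.0 RPKM with 0.5 μM at 24 h. SAT1, a polyamine acetyltransferase, fell by 0.23 and ID3, an inhibitor of E proteins, rose by 0.22 (limma, adjusted p = 0.0422 and 0.0178), and both calls were unsteady. ID3 was not called after median-ratio or quantile scaling, and SAT1 was at -0.03 after rescaling to an equal sum (limma, adjusted p = 0.728) and was called in 1 of the 6 fits that left out 1 library. ASNS, asparagine synthetase, had 175, 156 and 166 RPKM against 159, 162 and 164 RPKM, which overlap (-0.03, limma adjusted p = 0.738). EGR2 is given above. STAT5A, a signal transducer of cytokine receptors, was among the 10 largest falls, from 4.81, 3.45 and 3.28 RPKM to 1.81, 1.12 and 1.12 RPKM (-1.24, limma adjusted p = 0.0144), but was not called without treated replicate 2 or 3.

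MHC class II genes, which present antigen to helper T cells, were lower by smaller amounts. Of 18 genes 9 fell and none rose, where 1.31% of all tested genes fell, with a median of -0.22. The members ranged from -0.53 to 0.50, with 15 below 0 and 3 above it. HLA-DQA1 had 31.6, 29.5 and 28.5 RPKM in untreated and 22.1, 22.1 and 20.4 RPKM in treated cells, without overlap (-0.46, limma adjusted p = 0.00797). HLA-DQA2 (-0.53), HLA-DRB1 (-0.41), HLA-DRB5 (-0.31), HLA-DPB1 (-0.29), HLA-DMA (-0.26), HLA-DRA (-0.25), HLA-DPA1 (-0.24) and the invariant chain CD74 (-0.23) fell as well. The class II activator CIITA did not pass the test (-0.20, limma adjusted p = 0.089). Similar DQA and DRB copies may share reads, and after rescaling to an equal sum 3 genes of the list were lower and 3 higher. The fallers numbered 1 without treated replicate 1, 2 or 3, 7 without untreated replicate 1 or 2 and 9 without untreated replicate 3. In the direct test 14 of the 18 genes were higher at 24 h than at 6 h, where 12.7% of all genes were. Of 14 MHC class I genes none passed the test.

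Interferon response genes had a median of -0.29 beside 0.05 for all genes, and of -0.11 beside 0.24 after rescaling to an equal sum. A value below 0 was found for 29 of 32, but 3 passed the test, where 1.31% of all tested genes fell. These were SAMD9L (-0.68), IRF9 (-0.64) and STAT2 (-0.27), the last 2 being subunits of the factor that drives the response. Without untreated replicate 3 the number was 10, without treated replicate 1 it was 1, and without each of the other libraries it was 0. All 13 mRNAs of the mitochondrial genome were below 0, 6 of them past the test, with a median of -0.50 (-0.30 after rescaling to an equal sum). MT-CO2, a cytochrome oxidase subunit, had 284, 294 and 258 RPKM in untreated and 176, 177 and 202 RPKM in treated cells (-0.59, limma adjusted p = 0.00547). The mitochondrial fallers numbered 1, 1 and 5 without treated replicate 1, 2 or 3 and 3, 3 and 11 without untreated replicate 1, 2 or 3.

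Of 64 snoRNA and Cajal body RNA genes 54 had a value below 0 and 5 fell, where 1.31% of all tested genes fell. Their median of -0.37 became -0.21 after rescaling to an equal sum and -0.14 after removal of a trend on transcript length, chosen after seeing the data. Of 25 small nuclear RNA genes 1 fell, with a median of -0.06. SCARNA7 had 233, 198 and 167 RPKM in untreated and 126, 120 and 114 RPKM in treated cells (-0.71, limma adjusted p = 0.0117). The fallers numbered 2, 0 and 0 without treated replicate 1, 2 or 3 and 3, 3 and 15 without untreated replicate 1, 2 or 3. RN7SK, the RNA of the complex that holds back the elongation factor P-TEFb, took 15.1 to 16.8% of summed RPKM in untreated and 11.6 to 13.1% in treated cells, and did not pass the test (-0.59, limma adjusted p = 0.0549). Many snoRNA and Cajal body RNA genes lie inside other genes, with which they may share reads.

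**Figure D3:**
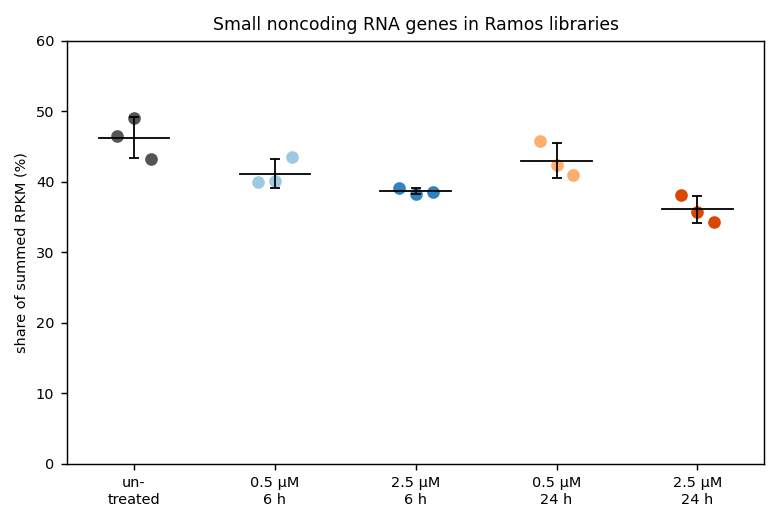
Share of summed RPKM (y axis, percent, from 0) taken by small noncoding RNA genes in the 15 Ramos libraries, by group (x axis). Points are libraries, and lines and bars are the mean and SD of 3: untreated libraries lie at 43.2 to 49.0% and those at 2.5 μM and 24 h at 34.3 to 38.2%.

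MYC itself was higher in treated cells. It had 131, 137 and 153 RPKM in untreated and 162, 177 and 168 RPKM in treated cells, without overlap, and rose by 0.27 ± 0.06 (SE; limma, adjusted p = 0.0424). The call was lost after median-ratio scaling and quantile normalization and without any single library other than untreated replicate 3, with log2 fold changes of 0.23 to 0.34 over the fits that left out 1 library. In the network of 16 genes 14 passed the mean of 0.5 RPKM, and MAZ, a zinc finger factor first described at the MYC promoter, was the other member that rose (0.32, limma adjusted p = 0.0197). Its call was lost after quantile normalization, after removal of a trend on GC content (0.14, limma adjusted p = 0.223) and in 4 of the 6 fits that left out 1 library. MAX had 24.0, 24.6 and 22.9 RPKM against 21.4, 23.3 and 23.8 RPKM, which overlap (-0.06, limma adjusted p = 0.598). The antagonists MNT (0.34), MXD4 (0.26), MXD3 (0.14), MXI1 (0.12) and MXD1 (-0.11) did not pass the test, nor did WDR5 (0.11), KMT2A (-0.03) or MGA (0.01). MYCN was listed at 0 in all 6 libraries.

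The growth functions that MYC is known for include ribosome biogenesis, translation and glycolysis. Of 55 ribosome biogenesis genes 4 rose and of 41 translation factors 3 rose, where 3.3% of all tested genes rose. The groups did not overlap, with treated cells higher, for 27 of the biogenesis genes and 18 of the translation factors, beside 20.6% of all genes. Of 78 cytosolic ribosomal protein genes and of 23 glycolysis genes none passed the test. FBL, the methyltransferase of nucleolar RNA processing, had 78.4, 79.4 and 91.0 RPKM in untreated and 126, 121 and 121 RPKM in treated cells (0.56, limma adjusted p = 0.0042). RRP9, RRS1 and BOP1 rose by 0.35, 0.29 and 0.24. ODC1, the rate-limiting enzyme of polyamine synthesis, rose by 0.28, from 580, 589 and 575 RPKM to 703, 713 and 705 RPKM (limma, adjusted p = 0.0075). FBL kept its call in each setting except eBayes without the trend, whereas the biogenesis list gave 1 call after median-ratio scaling and without any single library other than untreated replicate 3, which gave 8 higher and 1 lower. The translation list gave 0 calls after median-ratio scaling.

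Part of the DNA synthesis genes rose. Of 41 replication genes 12 rose, and of 30 nucleotide synthesis genes 4 rose, with medians of 0.13 and 0.14, where 3.3% of all tested genes rose. TYMS, thymidylate synthase, had 34.5, 30.4 and 30.5 RPKM in untreated and 42.8, 46.1 and 45.8 RPKM in treated cells (0.49, limma adjusted p = 0.00754). It overlaps TYMSOS and ENOSF1 on the other strand. The helicase subunits MCM2, MCM4, MCM5 and MCM7, the sliding clamp PCNA, CDT1 and the polymerase subunits POLD1 and POLD2 were among those that rose, by 0.21 to 0.39. After median-ratio scaling 1 replication gene was called, and the number was 1, 0 and 0 without treated replicate 1, 2 or 3 and 3, 1 and 13 without untreated replicate 1, 2 or 3. Nucleotide synthesis gave 1 gene without any single treated library, 4, 2 and 8 without untreated replicate 1, 2 or 3. TYMS and PCNA were higher still at 6 h, at 58.7 and 267 RPKM against 44.9 and 222 RPKM at 24 h.

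Sterol synthesis genes, targets of the SREBP factors, had the largest share of rises among the 29 lists. Of 27 genes 14 rose and none fell, where 3.3% of all tested genes rose, with a median of 0.25. INSIG1, a sterol sensor that restrains SREBP processing, had 58.6, 49.7 and 52.6 RPKM in untreated and 69.4, 72.9 and 73.1 RPKM in treated cells (0.42, limma adjusted p = 0.0119). SCD, a fatty acid desaturase, had 27.2, 27.9 and 28.2 RPKM against 36.0, 37.1 and 36.8 RPKM (0.39, limma adjusted p = 0.00527). DHCR7 (0.49), TM7SF2 (0.38) and ACAT2 (0.31) rose too, whereas HMGCS1 (0.11) did not pass the test. At 6 h INSIG1 averaged 125 RPKM, and 21 of the 27 genes were lower at 24 h than at 6 h in the direct test. In that test 10.4% of all genes were lower at 24 h. The rises numbered 4 after median-ratio scaling, 5 after quantile normalization and 0 without the trend in eBayes. They numbered 2, 1 and 1 without treated replicate 1, 2 or 3 and 7, 6 and 14 without untreated replicate 1, 2 or 3.

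Among the genes that rose, INSIG1 and MCM7 held an E box in the 250 bases before the RefSeq start. They were chosen after their values were seen, as examples of the element that MYC, MAX and Omomyc bind, with matches in capitals. An E box was in 34 of the 329 genes that rose and had an entry (10.3%). It was in 16 of 120 that fell (13.3%) and in 9.32% of all tested genes with an entry. The windows on GRCh38.p14 are chr7:155297628-155297877, plus strand, and chr7:100101398-100101647, minus strand.
INSIG1: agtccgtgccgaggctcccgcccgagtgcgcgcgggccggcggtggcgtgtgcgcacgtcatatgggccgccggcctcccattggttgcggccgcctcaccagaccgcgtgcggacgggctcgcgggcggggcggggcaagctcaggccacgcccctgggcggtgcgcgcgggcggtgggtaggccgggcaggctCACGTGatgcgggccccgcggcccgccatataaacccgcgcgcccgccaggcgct
MCM7: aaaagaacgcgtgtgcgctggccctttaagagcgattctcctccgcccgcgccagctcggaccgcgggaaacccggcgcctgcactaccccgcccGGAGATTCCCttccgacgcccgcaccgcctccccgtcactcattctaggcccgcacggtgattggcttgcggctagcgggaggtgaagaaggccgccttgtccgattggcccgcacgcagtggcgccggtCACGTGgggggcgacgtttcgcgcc
The E box began 55 bases before the start in INSIG1 and 25 bases before it in MCM7, whose window also held an NF-κB consensus match at 155 bases. The windows of SCD, TYMS, FBL and ODC1 held no E box. Those of MCM2 and EIF4B, which rose, held 1, as did those of IRF9, HERPUD1 and TNFAIP3, which fell. The call of MCM7 was lost after median-ratio scaling (limma, adjusted p = 0.0623). It was kept in 2 of the 6 fits that left out 1 library. MCM7 overlaps AP4M1 on the other strand.

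**Figure D4:**
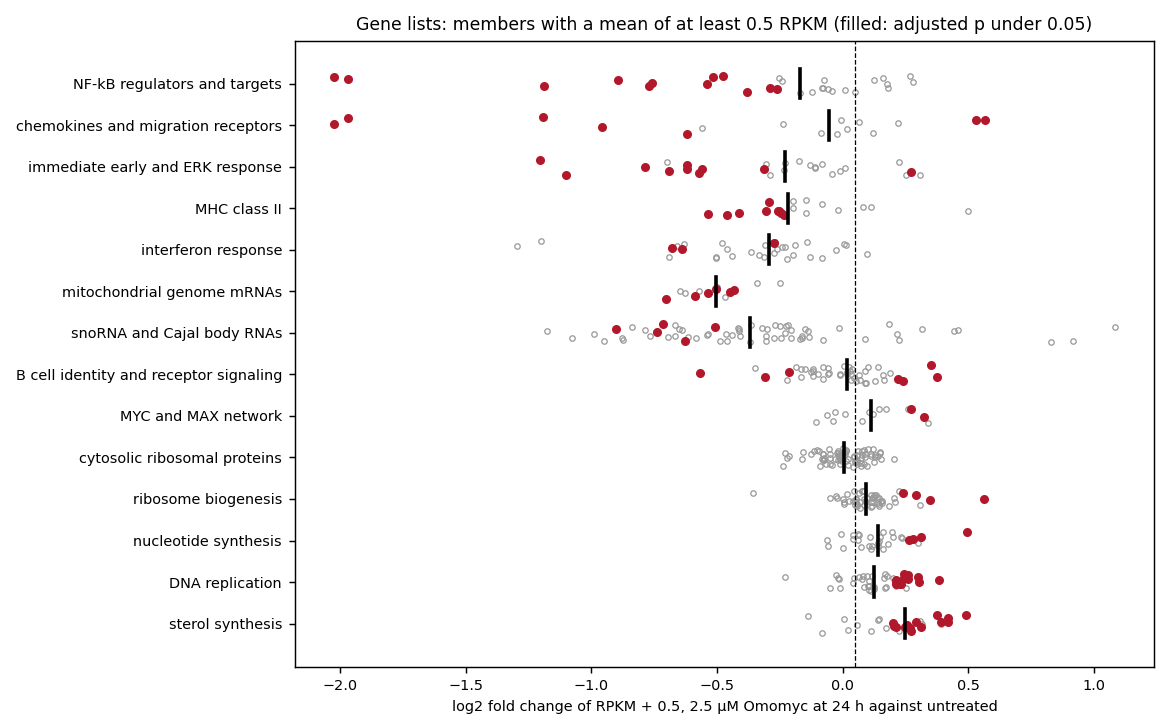
Log2 fold change (x axis, 2.5 μM Omomyc at 24 h against untreated) of the members of 14 gene lists (y axis) with a mean of at least 0.5 RPKM. Filled points passed the adjusted p of 0.05, open points did not, black bars are list medians (-0.17 for NF-κB genes, 0.25 for sterol synthesis) and the dashed line is the median of all genes, 0.05.

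The 10 largest rises among protein-coding genes with a mean of at least 2 RPKM lay between 0.66 and 0.96 on the log2 scale. TUBB3, a neuronal β-tubulin, had 49.8, 49.3 and 60.9 RPKM in untreated and 97.6, 101 and 101 RPKM in treated cells, without overlap. It rose by 0.91 ± 0.08 (SE; limma, adjusted p = 0.00189) and kept its call in each alternative run for single genes. Its locus overlaps the readthrough gene AC092143.1 and, on the other strand, AC092143.2. TUBB3 averaged 147 RPKM at 6 h with 2.5 μM, and 55.6 RPKM at 24 h with 0.5 μM. LRRC14B, with 11.3, 10.2 and 11.6 RPKM against 18.1, 18.0 and 17.7 RPKM, and ZDHHC24, a predicted palmitoyltransferase, with 5.25, 5.70 and 5.21 RPKM against 9.22, 8.53 and 9.08 RPKM, rose by 0.67 and 0.68 and were also called in each of these alternatives. ZDHHC24 overlaps BBS1 on the other strand. The other 7 of the 10 largest rises, TMEM160 (0.96), FBXL15 (0.80), TPGS1 (0.76), TMEM238 (0.70), RIMKLA (0.70), SH2B2 (0.69) and FAM98C (0.66), were not called without treated replicate 1, 2 or 3.

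**Figure D5:**
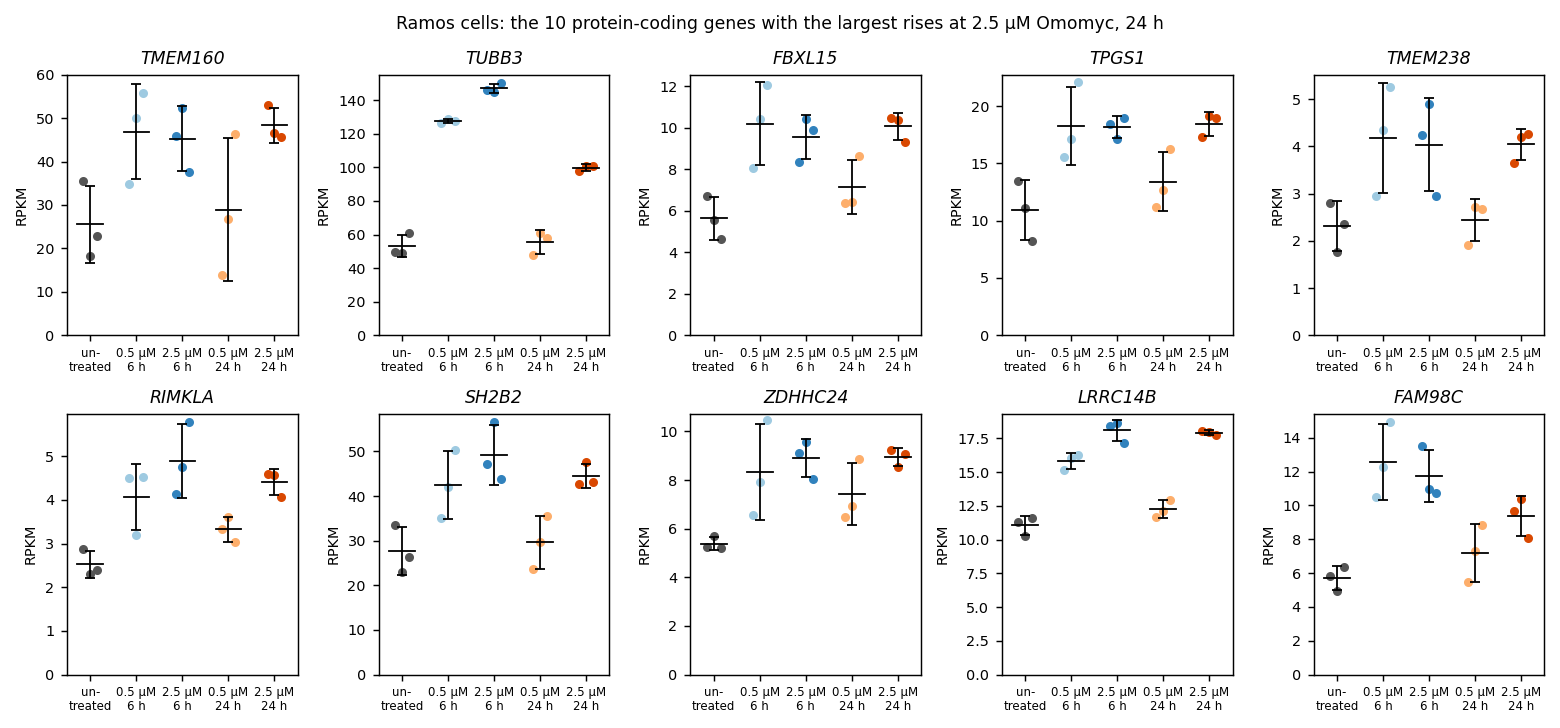
RPKM (y axis, linear from 0) of the 10 protein-coding genes with the largest rises in each of the 15 Ramos libraries, by group (x axis). Points are libraries, and the black line and bars are the mean and SD of 3. TUBB3 stands at 97.6 to 101 RPKM with 2.5 μM at 24 h against 49.3 to 60.9 RPKM in untreated cells.

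Of 46 B cell identity and receptor signaling genes 4 rose and 3 fell, where 3.3% of all tested genes rose and 1.31% fell, with a median of 0.02. CD79B, a signaling chain of the B cell receptor, had 348, 374 and 405 RPKM in untreated and 495, 483 and 480 RPKM in treated cells (0.37, limma adjusted p = 0.0121). TCF3, an E protein, and the kinase gene BLK rose by 0.35 and 0.24, and ID3 is given above. CD24, CD40 and MS4A1, which encodes CD20, fell by 0.57, 0.31 and 0.21. The transcription factors PAX5 (0.09), BCL6 (0.07) and IRF4 (0.03) did not pass the test. In bulk RNA, a smaller number of cells of a kind and less RNA per cell cannot be told apart. Without treated replicate 1, 2 or 3 the list gave 0 rises and 1, 0 and 0 falls.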

How the data were processed

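Total RNA of Ramos cells was sequenced after rRNA depletion with a strand-specific kit (TruSeq Stranded Total RNA Ribozero, per the labels). The authors deposited RPKM for 57992 genes by Ensembl identifier. The submitters' processing notes name RSEM without a version. The genome build, the annotation and the use of strand are not given in the sources used here. Whole reads could not be recovered from the fractional values, so no count model, interval or detection limit was used.

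Library columns were matched to labels by the number in the sample description. Symbols and positions were looked up in GENCODE release 29 (GRCh38), where 57388 of the identifiers were found. Log2(RPKM + 0.5) was fitted with limma 3.58.1 in R 4.3.3 (lmFit, eBayes with trend) for genes that averaged at least 0.5 RPKM in the libraries compared. Genes were called at p values under 0.05 after Benjamini-Hochberg adjustment. The fits were tested on simulated data. Named genes were the 10 largest rises and falls among protein-coding genes past the threshold with a mean of at least 2 RPKM and no overlap, 3 and 3 of other biotypes, the 6 largest called members of each list, all members of 2 lists (the MYC network and the RT-PCR genes), and the 3 largest rises and falls of each direct comparison. List members named beyond these were chosen after their values were seen. The comparison and the 29 gene lists were chosen with earlier results of these data known. The paper does not describe this RNA-Seq of Ramos cells and gives no test for the table. Alternatives are given in the closing section.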

Additional observations from a re-analysis of the deposited data

Results flagged for a closer look

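The change after 2.5 μM Omomyc differed between 24 h and 6 h, in the direct limma test of the libraries at these times with Benjamini-Hochberg adjustment, for 15 of 24 genes examined, which were the 10 largest rises, the 10 largest falls and the genes tested by RT-PCR. With the noncoding genes and list members that the naming rule took from the comparison with untreated cells, 56 of 115 genes differed. Of all genes tested between these times 23% differed. Apart from the MYC network and RT-PCR genes, the genes examined were picked by values in the 24-h libraries that this test also uses. Their shares therefore cannot be weighed against that of all genes. The values are log2 differences, 24 h minus 6 h. Among the 10 largest falls all differed: CCL3 by 1.72, CCL1 by 1.51, CCL4 by 1.42, EGR2 by 1.39, STAT5A by 1.22, ITGB2 and EBI3 by 1.11 each, CCL4L2 by 0.88, SEMA7A by 0.86 and DUSP5 by 0.70. Their levels at 24 h lay between those at 6 h and those of untreated cells. Among the 10 largest rises TUBB3 differed, by -0.56, and its 24-h level lay between as well. All 5 genes tested by RT-PCR differed: EGR2 as given, CD274 by 1.13, SAT1 by 0.26, ASNS by 0.17 and ID3 by 0.10. ID3 lay above untreated cells at both times. The adjusted p was between 1.11e-05 (EGR2) and 0.0457 (ID3).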

How the results depend on the processing

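Against untreated cells 627 genes were called, with 617 and 626 at a pseudocount of 0.1 or 1 and 794 at a mean of at least 2 RPKM. The count was 84 without a filter on low values, 24 without the trend in eBayes (6 higher, 2624 genes at an unadjusted p under 0.05), 1242 with all 5 Ramos groups in one fit, 346 after median-ratio scaling, 323 after quantile normalization, 5362 after rescaling to an equal sum, 68 at an adjusted p under 0.01 and 21 when a log2 change of 1 or more was also asked for. Removing a trend on GC content or transcript length, chosen after seeing the data, gave 343 and 368 (39.1% and 46.2% higher). Leaving out 1 library gave 60 (treated replicate 2) to 929 (untreated replicate 3). For 24 h against 6 h (3125), no filter gave 2040, an adjusted p under 0.01 gave 1429 and the fold limit 47, and leaving out 1 library 2208 to 2502. The split was 55.0% higher, and 77.0% after rescaling to an equal sum. For 2.5 against 0.5 μM at 24 h (579), no filter gave 65, an equal sum 2567, no trend 54, all 5 groups 904, an adjusted p under 0.01 gave 122 and the fold limit 40, and leaving out 1 library 142 (2.5 μM replicate 2) to 645 (0.5 μM replicate 3). Its 56.3% higher became 39.4% after median-ratio scaling, 35.8% after quantile normalization and 92.6% after an equal sum. Correlations of deviations from the group means were -0.05 to 0.05 between same-numbered treated and untreated libraries. Between differently numbered ones they were -0.08 to 0.04, so this check cannot tell whether the replicate numbers pair the libraries. As a block the replicate numbers gave 197 calls against untreated cells and 366 between the doses. Treated replicates 1 and 2 each correlated best with an untreated library of another number. No named gene was called in the opposite direction, but among the 116 values for named genes, not all of them called, 69, 79 and 78 lost their call without treated replicate 1, 2 or 3 and 32, 45 and 7 without untreated replicate 1, 2 or 3. The 10 largest falls stayed called in each scaling, with the block and after both trend removals. Without a treated library 1 or 2 of them, ITGB2 and STAT5A, were lost. The cause of these differences was not tested, and the unknown depth limits the precision of low genes.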

Other observations

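The counts of the other lists against untreated cells follow, where 3.3% of all tested genes rose and 1.31% fell. Among 59 replication-dependent histone genes 2 fell and 1 rose, whereas 44 were lower at 24 h than at 6 h with 2.5 μM. Between these times 10.4% of all genes were lower at 24 h. HIST1H4C, a histone H4 gene, averaged 656 RPKM in untreated cells, 819 at 6 h and 520 at 24 h. Of 28 unfolded protein response genes XBP1 rose by 0.24 and HERPUD1 fell by 0.24, and 17 were lower at 24 h than at 6 h. Of 35 ATF4 and amino acid response genes WARS and ATF5 fell by 0.39 and 0.31 and PHGDH rose by 0.22. Of 19 genes of G1 control CDC25A, E2F1 and E2F2 rose by 0.39, 0.36 and 0.33, and the rises numbered 1, 0 and 0 without treated replicate 1, 2 or 3 and 3, 2 and 4 without untreated replicate 1, 2 or 3. Of 36 mitosis genes CENPA rose, of 19 heat shock genes FKBP4, and of 18 NRF2 genes FTH1. Of 14 BCL2 family genes BCL2A1 fell, of 21 p53 targets BTG2, and of 9 polyamine genes SAT1 fell and ODC1 rose. None of 14 MLX and TFEB targets passed.

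Some genes differed between times but not from untreated cells at 24 h. SPOCK2, a proteoglycan gene, averaged 6.15 RPKM in untreated cells, 1.69 at 6 h and 5.601 at 24 h. VPREB3 averaged 15.1, 38.1 and 15.03 RPKM, and NAPSA, an aspartic protease gene, 14.2, 26.8 and 11.9 RPKM. In the direct limma test their 24-h values differed from 6 h by 1.47, -1.32 and -1.14 on the log2 scale.

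Outside protein-coding genes, the largest called values were unsteady between libraries. The miRNA gene MIR3648-1 had 0, 0.702 and 0.352 RPKM in untreated and 2.66, 15.1 and 5.72 RPKM in treated cells. AL356488.2, which overlaps SCARNA2, had 9.02, 22.6 and 6.04 against 42.8, 35.4 and 60.9 RPKM. The pseudogene H3F3AP4, near-identical to an H3 histone gene, had 15.3, 38.0 and 4.12 RPKM in untreated cells and at most 3.41e-06 RPKM in treated ones, and its reads may be assigned to other copies.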
